A study of Homo sapiens with 4 samples.

Results

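Ribosomes are assembled in the nucleolus, where RNA polymerase I makes a long precursor of ribosomal RNA. A large number of assembly factors fold, modify and cut this precursor while ribosomal proteins are added to it. The factors leave as the small and large subunits mature, some of them only in the cytoplasm. Their genes are highly active in growing tumour cells, in which MYC is a known activator of many of them. The genes described here are 39 nucleolar ribosome biogenesis genes, listed by name as components of this pathway. Of these, 34 had a probe set that the platform annotation gives to no other gene. All 34 passed the filter on low signal (the lowest mean over the 4 arrays was 306, with the filter at 97.4) and were tested, among 12636 tested genes in all.

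Their RNA was measured in HCT116, an established human colon cancer cell line. All cells were first kept without serum for 24 h, so serum deprivation is shared by both groups. A further 72 h followed, with 1% oxygen for the hypoxia group and 21% for the normoxia group. Each group had 2 Affymetrix arrays, which the labels call exp A and exp B (A and B below). Whether A and B were separate cultures is not stated in the labels. The p-values therefore measure only how these samples vary, possibly for technical reasons, and the number of arrays limits the precision.

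Each value is a MAS5 signal, a linear brightness of 1 probe set on 1 array. Every array had been scaled to the same trimmed mean, 499.9, so each direction is relative to the other genes of that array. Differences are given as hypoxia minus normoxia after taking log2(signal + 23.7), an offset that makes the change of dim genes look smaller than it is. Groups were compared with limma, and a gene was called at an adjusted p under 0.05 over all tested genes. Each probe set has its own brightness per transcript, so signals of different probe sets were not compared gene by gene. The marker sums, the brightness bands and the background bounds below do set them side by side, and so are rough.

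Markers of the label were checked first. All 9 measured hypoxia response genes were called higher at 1% oxygen with the deposited scaling, and the epithelial genes EPCAM, KRT8, KRT18, KRT19, CDH1 and CLDN7 had signals of 4723 or more on all 4 arrays. Of 10 epithelial genes 5 were called higher in hypoxia at that scaling (EPCAM, KRT19, CDH1, CLDN4 and ELF3) and 0 lower (0 at an unadjusted limma p under 0.05). The intestinal markers were dim. CDX2 was at 210 and 217 in normoxia A and B and at 23.0 and 107 in hypoxia A and B, and VIL1 at 49.9 and 169 against 181 and 55.8, with the hypoxia signals of both genes under the Bacillus controls described below. The summed signal of 8 fibroblast genes was 764 to 1446 in normoxia and 2580 to 2830 in hypoxia, against 82271 to 135940 for 10 epithelial genes, and COL1A1 was the 1 fibroblast gene called higher. Sums were 281 to 898 for 6 leukocyte genes and 119 to 537 for 5 endothelial genes, of which 1 each passed the filter and was tested, without a call. All 4 signals lay under the brightest Bacillus control of their array, taken here as a background level, for 2 fibroblast, 2 leukocyte and 4 endothelial genes. Several array controls differed between the groups. The hybridization controls had geometric means of 2051 and 3961 in normoxia against 8580 and 7071 in hypoxia. The ratio of the 3' to the 5' probe set of ACTB was 1.26 and 1.28 in normoxia against 1.66 and 1.77 in hypoxia, while that of GAPDH was 0.91 to 1.00 on all arrays. The part of these values in the differences below was not tested. In RNA from a whole culture, fewer cells of a kind and less RNA per cell cannot be told apart.

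Several of these genes share a sequence next to their start. The choice of genes used no promoter sequence, but it was made with earlier results of these data known. RefSeq promoters on the GRCh38.p14 build were at hand for 33 of the 39 genes and for 29 of the 34 tested ones. Each runs from 250 bases before to 50 bases after the start given with it. For NPM1, BYSL and PES1 that start lies well inside the annotated gene. The E-box CACGTG, which reads the same on both strands and is bound by MYC with MAX among other factors, was present in 13 of the 29 (44.8%). It was present in 10.1% of the 10215 promoters of tested genes and in 13.9% of those of genes called lower. Among the further processing and assembly genes described below, 26.7% of 101 promoters held it. The last 100 bases before the start are printed for 4 genes that fell in hypoxia and hold an E-box there, with the E-box in capitals. The near E-box of UTP18 begins 5 bases after the start and so outside this stretch, and the one marked is the distant one. The stretches lie on the plus strand at chr12:101280005-101280104 (UTP20), chr11:34105529-34105628 (NAT10), chr16:69132549-69132648 (UTP4) and chr17:51260446-51260545 (UTP18).
UTP20: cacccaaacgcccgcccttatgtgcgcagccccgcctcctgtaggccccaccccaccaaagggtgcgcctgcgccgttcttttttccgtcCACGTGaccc
NAT10: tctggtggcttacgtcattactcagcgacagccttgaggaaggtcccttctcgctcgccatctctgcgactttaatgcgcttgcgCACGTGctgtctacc
UTP4: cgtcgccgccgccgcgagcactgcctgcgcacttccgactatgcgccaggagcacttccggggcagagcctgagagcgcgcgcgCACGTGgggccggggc
UTP18: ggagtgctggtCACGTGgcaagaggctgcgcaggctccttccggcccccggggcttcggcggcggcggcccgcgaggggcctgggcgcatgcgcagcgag
The same stretch of NPM1, at chr5:171387749-171387848 on the plus strand, is an example without these letters. FBL and NOP2 hold an E-box and were not called, and 11 of 16 genes without one fell.
NPM1: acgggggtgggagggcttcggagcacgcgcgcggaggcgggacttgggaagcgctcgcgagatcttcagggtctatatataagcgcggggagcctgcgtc

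Most of the set was lower at 1% oxygen. Of the 34 tested genes, 26 fell (76.5%), 1 rose and 7 were not called, whereas 22.8% of all tested genes were called lower and 15.3% higher. The fitted fall was at least 2-fold in 21 of them, a size and call reached by 16.2% of all tested genes. Both hypoxia signals lay below both normoxia signals for 28 of the 34, against 37.9% of all tested genes. The median difference of the 34 was -1.30, beside -0.03 for all tested genes, and fitted values of single genes ranged from -4.57 for PES1 to 0.72 for NPM1. In 4 of the genes that fell the hypoxia signals were too dim for the size to be known, and with these set to the bounds given below the median was -1.11, beside 0.00 for all tested genes treated alike. The smallest adjusted p in the set was 8.26e-05. Of the genes that fell, UTP18, UTP20, NOP14 and WDR12 were not called without normoxia A or without normoxia B (adjusted p from 0.0678 to 0.111), nor LTV1 (0.0949) and BRIX1 (0.317) without normoxia A, nor LYAR (0.378) without normoxia B. Their signs were kept.

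The A and the B arrays gave the same picture separately. The median of the set was -1.34 from the A arrays alone and -1.22 from B alone. In both, 29 of 34 genes were negative, beside 5201 of 12636 tested genes. Across the 34 genes the A and B differences had a Pearson r of 0.84, which describes these genes and is no test, and it was 0.71 over all tested genes. In hypoxia B lay below A for 22 of the 34 genes, beside 6283 of 12636 tested genes. The median SD of log2 values over all tested genes was 0.27 in hypoxia and 0.15 in normoxia.

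**Figure D1:**
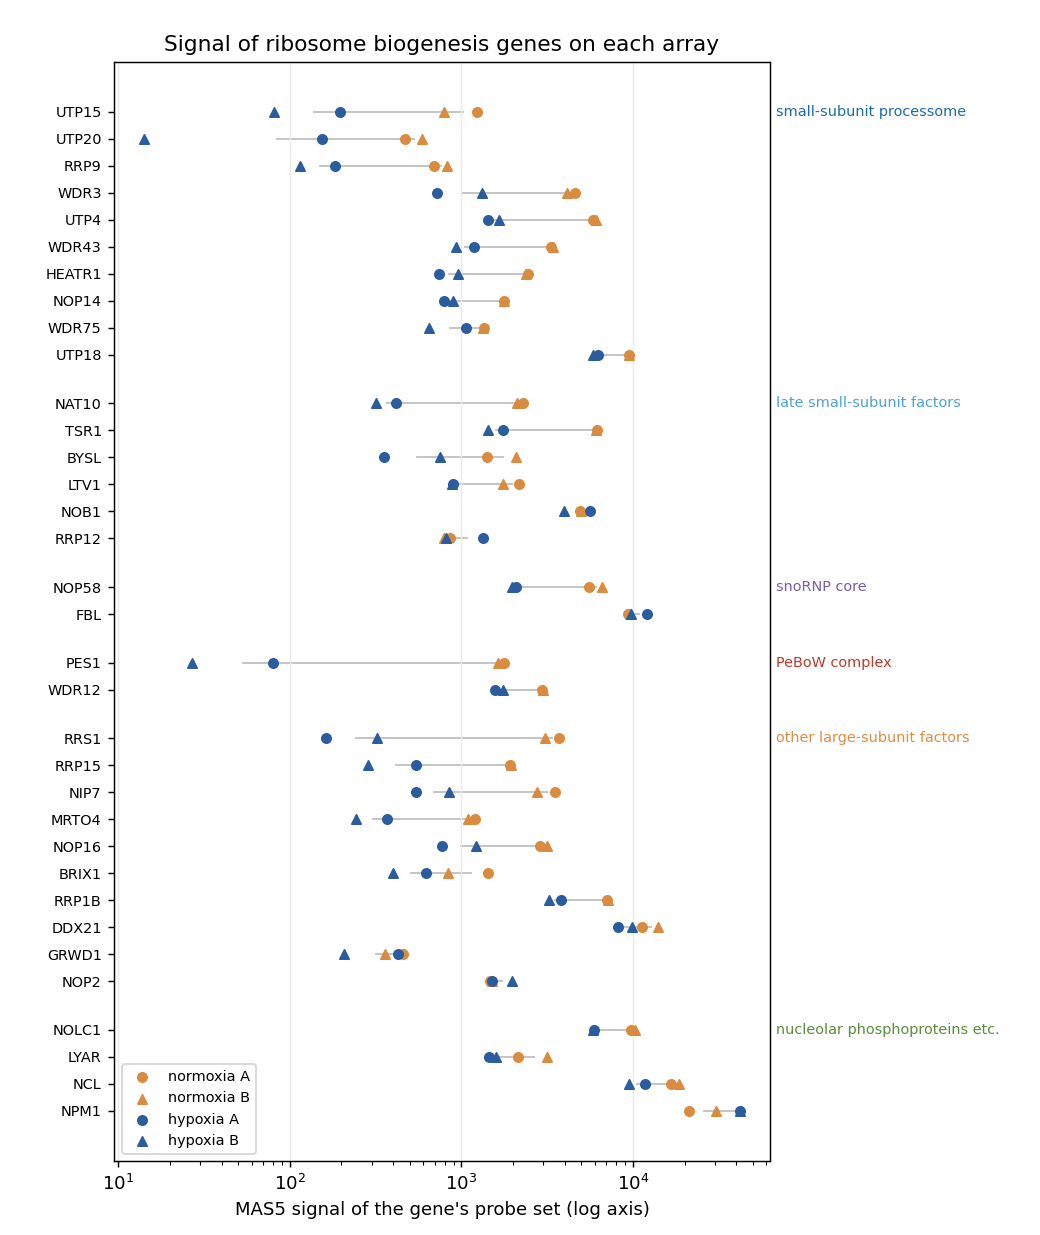
MAS5 signal (log axis) of the 34 measured genes on each array, grouped by role, with normoxia in orange, hypoxia in blue, circles for A, triangles for B and a grey line between the group means. Both hypoxia signals lie left of both normoxia signals for 28 genes, right of them for FBL and NPM1, and overlap them for NOB1, RRP12, NOP2 and GRWD1.

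The small-subunit processome is the large particle that forms on the first part of the precursor and releases the small subunit's RNA. Each gene was given a single role here, so the 10 genes counted under the processome need not be all of its components in the set. Of these 10 genes, 9 fell and 0 rose (0 at an unadjusted limma p under 0.05), with a median of -1.80. With UTP15, UTP20 and RRP9 at their bounds the median was -1.47. UTP15, a subunit of the UTP-A complex that links transcription of ribosomal DNA with the first processing steps, had signals of 1237 and 797 in normoxia A and B and of 196 and 81.4 in hypoxia A and B. UTP20, a long scaffold protein of the processome, had signals of 468 and 589 in normoxia A and B and of 155 and 14.2 in hypoxia A and B. In both genes each hypoxia array was below each normoxia array, and the hypoxia arrays differed widely from each other, most of all for UTP20. The difference was -2.74 ± 0.43 (SE; adjusted p = 0.00139) for UTP15. For UTP20 it was -2.74 ± 0.72 (SE; adjusted p = 0.0156), with -1.46 from the A arrays alone and -4.02 from B alone.

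RRP9, a protein of the U3 small nucleolar ribonucleoprotein that guides the first cuts, had signals of 696 and 828 in normoxia A and B and of 184 and 114 in hypoxia A and B. WDR3, a member of the UTP-B complex, had signals of 4565 and 4149 in normoxia A and B and of 719 and 1318 in hypoxia A and B. Neither gene overlapped between the groups. The difference was -2.21 ± 0.37 (SE; adjusted p = 0.00178) for RRP9 and -2.13 ± 0.27 (SE; adjusted p = 0.00046) for WDR3. UTP4, another UTP-A subunit and one of the genes whose E-box is printed above, differed by -1.95, with -2.03 from the A arrays alone and -1.86 from B alone.

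The other processome genes had smaller differences. WDR43 (difference -1.66) and HEATR1 (-1.48), both of UTP-A, fell, as did the processome factor NOP14 (-1.05). UTP18, a UTP-B subunit that brings in the nuclear exosome, fell by 0.64 on the log2 scale (adjusted p = 0.0116), the smallest change among the called genes of the processome. WDR75, also of UTP-A, was at -0.69 and was not called (adjusted p = 0.0680). With the letters as a block it was called (adjusted p = 0.0165). That fit rests on a spread pooled over genes, which can make its p-values too small. Without hypoxia A the difference of WDR75 was -1.04. Its hypoxia signals were both below its normoxia signals.

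Late small-subunit factors act on the pre-40S particle up to its release in the cytoplasm. Of 6 genes 4 fell and 0 rose (0 at an unadjusted limma p under 0.05), with a median of -1.41. NAT10, the enzyme that acetylates cytidines of 18S RNA, had signals of 2276 and 2096 in normoxia A and B and of 417 and 320.1 in hypoxia A and B. TSR1, a GTPase-like factor of the pre-40S particle, had signals of 6200.2 and 6124 in normoxia A and B and of 1750.0 and 1425 in hypoxia A and B. The groups were far apart for both, and the arrays of each group lay close together. The difference was -2.50 ± 0.23 (SE; adjusted p = 0.000121) for NAT10 and -1.95 ± 0.18 (SE; adjusted p = 0.000113) for TSR1.

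BYSL (bystin), which stays on the particle from the nucleolus to export, had signals of 1418 and 2078 in normoxia A and B and of 352 and 751 in hypoxia A and B. LTV1, a factor of pre-40S export, had signals of 2179.5 and 1758 in normoxia A and B and of 891 and 881 in hypoxia A and B. The groups did not overlap in either gene, and BYSL was higher on B than on A in both groups. The difference was -1.69 ± 0.35 (SE; adjusted p = 0.00521) for BYSL and -1.12 ± 0.20 (SE; adjusted p = 0.00267) for LTV1.

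The remaining late factors were not called. NOB1, the endonuclease that makes the 3' end of 18S RNA, had signals of 4918 and 4986 in normoxia A and B and of 5622 and 3988 in hypoxia A and B. The normoxia signals lay between the hypoxia signals, and with a difference of -0.06 ± 0.19 (SE; adjusted p = 0.817) it had the largest p of the set. RRP12, an export factor of pre-ribosomes, had signals of 859 and 792 in normoxia A and B and of 1339 and 811 in hypoxia A and B, with B in hypoxia inside the normoxia range and A above it. Its difference was 0.33 ± 0.27 (SE; adjusted p = 0.369). Without hypoxia B it was 0.68, and without hypoxia A it was -0.02.

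**Figure D2:**
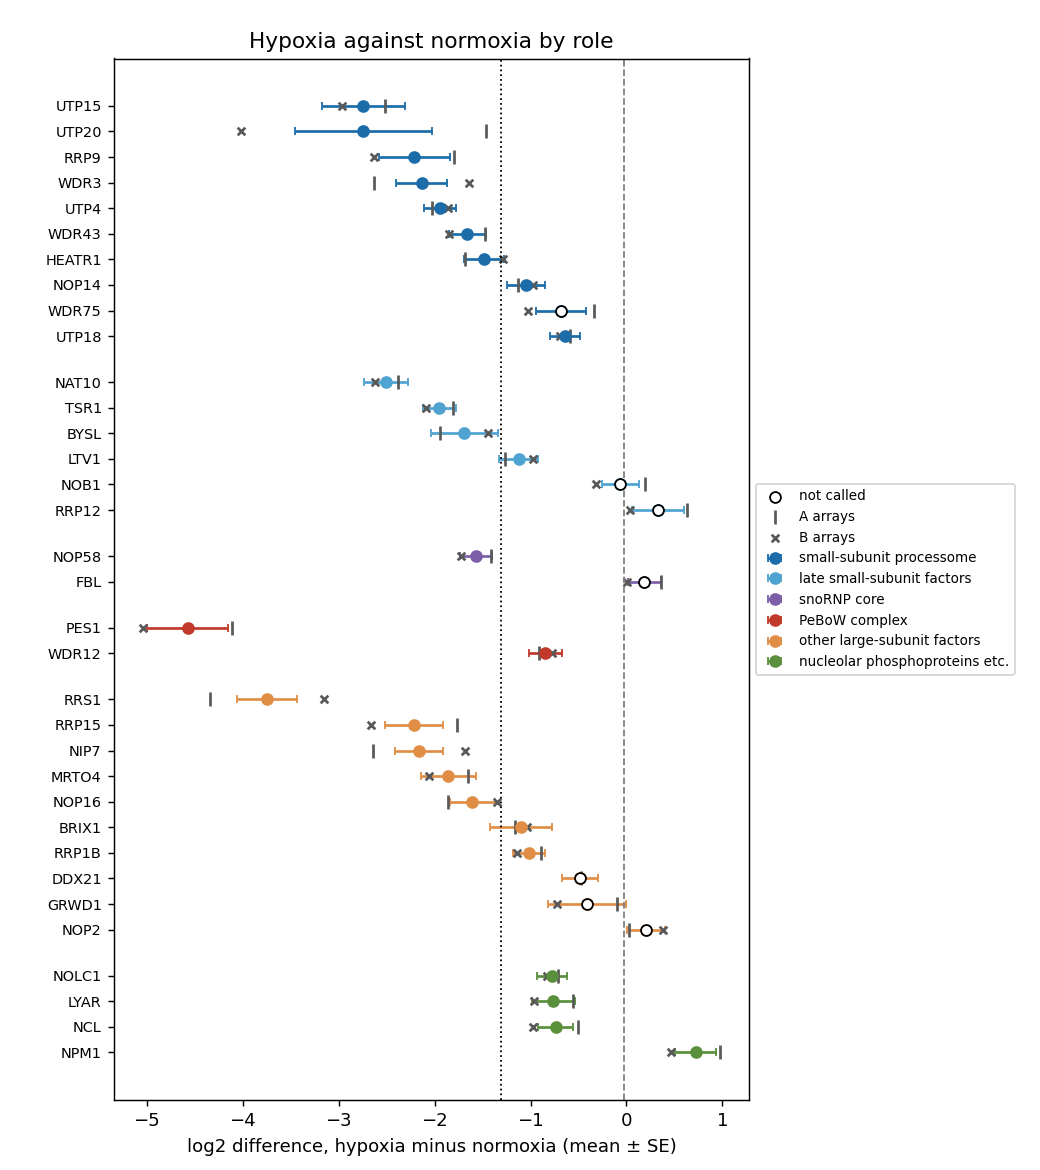
Log2 difference, hypoxia minus normoxia, of each gene with its SE (n = 2 arrays per group), coloured by role, with open circles for genes not called, bars for the A arrays and crosses for the B arrays. The dashed line marks the median of all tested genes (-0.03) and the dotted line that of the 34 genes (-1.30). Left of 0 lie 30 of the 34 points, beside 6442 of 12636 tested genes with a negative difference.

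Small nucleolar ribonucleoproteins carry guide RNAs that direct methylation and pseudouridylation of the precursor. Of 4 listed core genes, NOP58 and FBL could be measured alone. NOP58, which holds the box C/D particle together, had signals of 5577 and 6575 in normoxia A and B and of 2080.1 and 1973 in hypoxia A and B. FBL (fibrillarin), the methyltransferase of the same particle, had signals of 9352 and 9638 in normoxia A and B and of 12048 and 9689 in hypoxia A and B. Hypoxia was far below normoxia for NOP58 and just above it for FBL, where B of hypoxia exceeded B of normoxia by little. NOP58 differed by -1.57 ± 0.17 (SE; adjusted p = 0.000242). FBL, at 0.19 ± 0.17 (SE; adjusted p = 0.428), was not called. Probe sets of NOP56 and of the pseudouridine synthase DKC1 are listed together with small RNA genes of the same locus, so they were not assigned a value here.

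The PeBoW complex of PES1, BOP1 and WDR12 is needed to mature the RNAs of the large subunit that are cut from the precursor. PES1 had signals of 1768 and 1629 in normoxia A and B and of 80.0 and 26.8 in hypoxia A and B. Both hypoxia signals were a small part of the normoxia signals and lay below the brightest control probe set for Bacillus genes on their arrays, 305 on A and 226 on B. The difference, -4.57 ± 0.42 (SE; adjusted p = 0.000121), is therefore a fitted value whose rank cannot be read. Taken against those Bacillus controls, for sequences that human cells lack, PES1 was at least 6.00-fold lower. WDR12 had signals of 2966 and 3004 in normoxia A and B and of 1561 and 1743 in hypoxia A and B. It did not overlap either, with a smaller difference of -0.85 ± 0.17 (SE; adjusted p = 0.00485). BOP1 was in the same position as NOP56 and was not assigned a value.

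Further factors of the large subunit made up 10 tested genes, of which 7 fell and 0 rose (0 at an unadjusted limma p under 0.05), with a median of -1.35. RRS1, which with RPF2 brings the 5S ribonucleoprotein into the particle, had signals of 3724 and 3056 in normoxia A and B and of 162 and 322 in hypoxia A and B. Every hypoxia signal was below every normoxia signal by a wide margin, and the difference was -3.75 ± 0.31 (SE; adjusted p = 8.26e-05). The signal of hypoxia A lay under the Bacillus control of 305 on that array, so 1 of the 2 hypoxia arrays measured RRS1 above this level. RRP15, a pre-60S factor, had signals of 1914 and 1936 in normoxia A and B and of 547 and 285 in hypoxia A and B. NIP7, which is needed for processing of the precursor, had signals of 3516 and 2762 in normoxia A and B and of 544 and 847 in hypoxia A and B. MRTO4, a relative of the stalk protein P0 that holds its place on the pre-60S particle, had signals of 1206 and 1089.5 in normoxia A and B and of 368 and 243 in hypoxia A and B. None of the 3 overlapped between groups. Their differences were -2.21 ± 0.30 (SE; adjusted p = 0.000677) for RRP15, -2.16 ± 0.25 (SE; adjusted p = 0.00032) for NIP7 and -1.86 ± 0.29 (SE; adjusted p = 0.00125) for MRTO4.

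NOP16, a pre-60S factor, had signals of 2861 and 3138 in normoxia A and B and of 769.9 and 1219.6 in hypoxia A and B and a difference of -1.60 ± 0.24 (SE; adjusted p = 0.00100). RRP1B, a nucleolar protein of the RRP1 family, had signals of 7081 and 7179 in normoxia A and B and of 3822 and 3239 in hypoxia A and B and a difference of -1.01 ± 0.17 (SE; adjusted p = 0.00163). Both fell without overlap, but each also has a dimmer probe set of the opposite sign. Averaged over all their probe sets past the filter, neither was called, with NOP16 at -0.41 (adjusted p = 0.240) and RRP1B at -0.12 (adjusted p = 0.782). BRIX1, a factor of the early pre-60S particle, fell by 1.10 on the log2 scale (adjusted p = 0.0263), the largest p among the genes that fell. The other 3 were not called. The helicase DDX21 was at -0.49 (adjusted p = 0.0669) and at -0.63 without hypoxia B. It was called with the letters as a block (adjusted p = 0.0417), with the limit given above for that fit. Calls were also made after quantile normalization (-0.75, limma adjusted p = 0.00419) and after scaling to the hybridization controls (-1.93). The median of all tested genes was -1.48 with those controls. After scaling to the 75th percentile DDX21 was at -0.34 and was not called. GRWD1, a chaperone of ribosomal protein L3, was at -0.41, and NOP2, which methylates 28S RNA, at 0.20, both with adjusted p = 0.455 and overlapping groups. Without hypoxia A, NOP2 was at 0.40. EBNA1BP2 and GNL3 had no probe set under their names.

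The 4 nucleolar phosphoproteins and regulators, among them very abundant proteins of the nucleolus, differed by less than 2-fold with the probe sets used and the deposited scaling. NOLC1, a chaperone of small nucleolar ribonucleoproteins, had signals of 9764 and 10336 in normoxia A and B and of 5929 and 5816 in hypoxia A and B. NCL (nucleolin), which binds the nascent precursor, had signals of 16684 and 18602 in normoxia A and B and of 11716 and 9486 in hypoxia A and B. LYAR, a nucleolar zinc finger protein, had signals of 2131 and 3145 in normoxia A and B and of 1445 and 1595 in hypoxia A and B. Each of these fell without overlap, with differences of -0.77 ± 0.16 (SE; adjusted p = 0.00467), -0.74 ± 0.18 (SE; adjusted p = 0.0109) and -0.76 ± 0.22 (SE; adjusted p = 0.0236) in that order. After quantile normalization NCL was at -1.19, NOLC1 at -0.94 and LYAR at -0.67, the last not called. Further NOLC1 probe sets were at -1.13 and -0.75 with the deposited scaling.

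NPM1 (nucleophosmin), a histone chaperone and abundant protein of the nucleolar granular zone, was the gene of the set called higher. It had signals of 21348 and 30287 in normoxia A and B and of 41949 and 41861 in hypoxia A and B. Both hypoxia signals were above both normoxia signals, and the normoxia arrays differed more from each other than the hypoxia arrays did. The difference was 0.72 ± 0.21 (SE; adjusted p = 0.0259) with this probe set, but -0.01 and -0.54 with the other NPM1 probe sets, -0.15 after quantile normalization and -0.73 after scaling to the hybridization controls. The call was lost without hypoxia A (adjusted p = 0.0956) and without hypoxia B (adjusted p = 0.0953). The direction of NPM1 thus differed between its probe sets and between scalings.

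Further probe sets gave a second reading of part of the set. They passed the filter on low signal in 15 genes, 25 probe sets in all, of which 20 had the sign of the probe set used. In 11 of these genes all further probe sets had the same sign, though not the same size. TSR1 had further probe sets at -1.37, -0.34 and -0.03, the last with overlapping groups, and the mean of its probe sets was -0.92 in place of -1.95, still a call. WDR12 moved the other way, from -0.85 to -1.66, with dim further probe sets. LYAR was at -0.52 and not called with the mean (adjusted p = 0.104). The exceptions in sign were NPM1, NOP16, RRP1B and RRP12. NOP16 had a second probe set at -1.81 and a dim one, with signals of 45.8 and 32.1 in normoxia A and B and 233 and 284 in hypoxia A and B, at 2.18. RRP1B had a dimmer probe set at 0.77, with signals of 488 and 228 in normoxia against 997 and 344 in hypoxia, which overlap. RRP12 had one at -0.04. A single probe set was present for 14 of the 34 genes.

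Some of the falls ended near background. The brightest Bacillus control was 45.7 and 121 on the normoxia arrays and 305 and 226 on the hypoxia arrays. Both hypoxia signals were below it for 4 genes, PES1, UTP15, UTP20 and RRP9, and 1 of the signals was below it for RRS1 and GRWD1. No normoxia signal of the set was. For the first 4 genes the fitted difference gives no size, and the fall is a bound, at least 6.00-fold for PES1, 3.55-fold for UTP15, 2.73-fold for RRP9 and 1.91-fold for UTP20. For RRS1 1 of the hypoxia signals, on B, was above that level.

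The rest of the pathway was counted by list. Of 47 further small-subunit factors 37 fell and 1 rose, with a median of -1.26. The methyltransferase EMG1 (3024 and 3401 in normoxia A and B against 349 and 122 in hypoxia A and B) differed by -3.79, with hypoxia B under its Bacillus control. UTP14A, with both hypoxia signals under theirs, was at least 6.19-fold lower. The 18S RNA dimethylase DIMT1 differed by -2.30, while the kinase RIOK3 rose by 1.29 at the deposited scaling. Of 48 further large-subunit factors 33 fell and 1 rose, with a median of -0.98. The largest fitted falls were those of URB2, of LAS1L, which belongs to the complex that cuts the second internal spacer, and of NLE1. All their hypoxia signals were under the Bacillus controls, and they were at least 1.77-fold, 2.70-fold and 1.96-fold lower in that order. NSA2 rose by 0.50 at the deposited scaling.

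Small nucleolar ribonucleoprotein and assembly factors fell in 7 of 12 and rose in 0 (1 at an unadjusted limma p under 0.05), with a median of -0.93. They were led by the helicases RUVBL1 (-3.03, with hypoxia A under its Bacillus control) and RUVBL2 (-1.77) and the box H/ACA protein NHP2 (-1.69). The nuclear exosome, which trims the precursor's 3' ends, fell in 10 of 13 and rose in 0 (0 unadjusted), with a median of -1.37, led by EXOSC2 (-2.72, with hypoxia A under its Bacillus control), EXOSC5 (-2.23) and EXOSC6 (-1.98). Over these 4 lists 87 of 120 genes fell and 2 rose, with a median of -1.12, or -1.03 with falls into the background at their bounds. Fewer fell with either normoxia array left out, as was the case over all tested genes, and these counts are given below with the other settings.

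RNA polymerase I, which makes the precursor, and its factors fell in 9 of 16 genes and rose in 0 (0 unadjusted), with a median of -0.66. The catalytic subunit POLR1A, with both hypoxia signals under the Bacillus controls, was at least 2.10-fold lower. The catalytic subunit POLR1B differed by -1.74, and TAF1C of the promoter factor SL1, with hypoxia B under its Bacillus control, by -1.43. Fewer fell with either normoxia array left out and more with either hypoxia array left out, as was the case over all tested genes. These counts are given below with the other settings. The 16 genes and the 9 that fell include MYC. MYC, listed with these factors, had 13390.0 and 14846 in normoxia A and B against 5508 and 6941 in hypoxia A and B, with no overlap, and a difference of -1.19 ± 0.18 (SE; adjusted p = 0.00109).

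Cytosolic ribosomal proteins, the structural parts that the factors assemble, were called the other way in 50 of 52 genes and lower in 0 (0 unadjusted), with a median of 0.96, but after quantile normalization 2 were called higher with a median of -0.00, after scaling to the hybridization controls 0 were (0 unadjusted) with a median of -0.49, and without the intensity trend in limma 1 was. With hypoxia A or hypoxia B left out 24 and 26 were called higher. The largest were RPLP2 (1.92), RPL34 (1.12) and RPS18 (1.12). RPLP2 was dim, with signals of 198 and 288 in normoxia A and B and of 547 and 1713.5 in hypoxia A and B (SE 0.49). Of 79 listed ribosomal protein genes, 52 were tested. After quantile normalization, with scaling to the hybridization controls and without the trend, 25, 29 and 18 of the 34 assembly genes were called lower. Of all tested genes, 2655 of 12625, 5355 of 12515 and 1811 of 12636 were called lower, in that order.

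**Figure D3:**
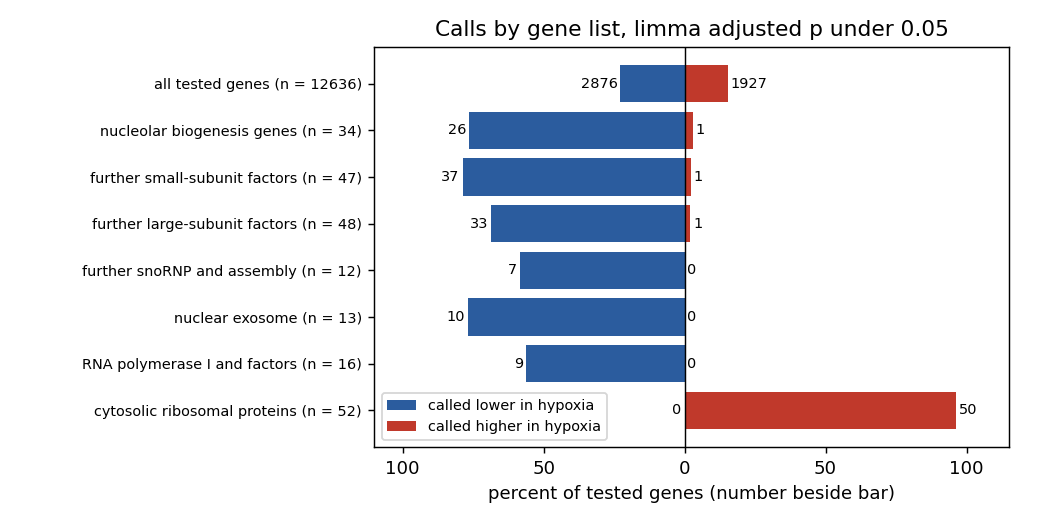
Percent of the tested genes of each list called lower (blue, to the left) and higher (red, to the right) in hypoxia, with the number of genes beside each bar. The 34 nucleolar biogenesis genes have 26 lower and 1 higher, against 22.8% and 15.3% of all tested genes, and the ribosomal proteins 0 lower and 50 higher at the scaling of the deposited values.

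Scaling sets the level against which a fall is read. Of all called genes 59.9% were lower and 40.1% higher with the deposited scaling. Scaled to the hybridization controls, 99.1% were lower and 0.85% higher, and the median of all tested genes moved by -1.45. The set's median was -2.72 there, and so -1.24 relative to all tested genes, beside -1.28 with the deposited scaling.

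The difference also varied with brightness, in bands set after the data were seen. Among the 473 tested genes with a mean signal of 10000 or more, 55.0% were called higher, with a median of 0.61. This band held 50 of the 52 ribosomal proteins and 4 of the 34 assembly genes, of which NCL fell, NPM1 was called higher and DDX21 and FBL were not called. From 2000 to 10000, where 31.6% of all tested genes were called lower, 10 of 11 assembly genes fell. From 500 to 2000, where the share was 33.7%, 13 of 16 fell. Below 500, where it was 10.5%, 2 of 3 fell. The part of brightness in the result was not tested beyond these counts.

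**Figure D4:**
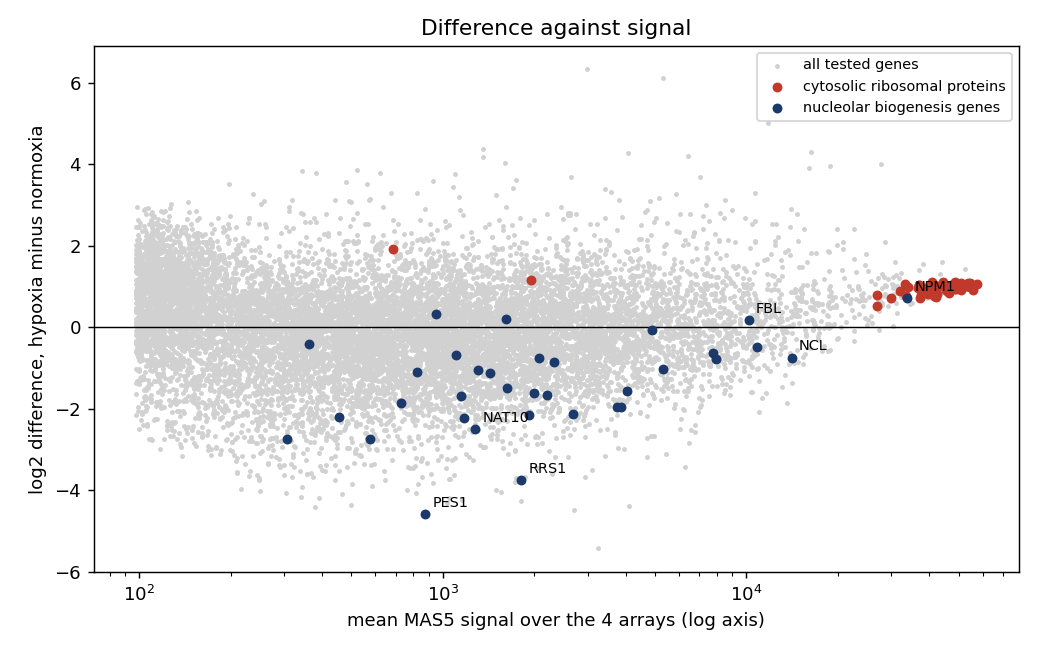
Log2 difference, hypoxia minus normoxia, against the mean MAS5 signal over the 4 arrays (log axis) for all tested genes (grey), ribosomal proteins (red) and the nucleolar biogenesis genes (dark blue). Most ribosomal proteins lie at a signal of 10000 or more and above 0 at the deposited scaling (their median is -0.00 after quantile normalization and -0.49 after scaling to the hybridization controls), and the biogenesis genes lie mostly below 0 at signals from 500 to 10000.

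Genes with and without an E-box were then set side by side. Among the tested genes with a promoter at hand, 11 of the 13 with an E-box fell, with a median of -1.69, and 11 of the 16 without one, with a median of -0.97. With genes at their bounds these medians were -1.45 and -0.97. Falls occurred in both, and the highest value with an E-box was 0.20, for NOP2. Of the 14 E-boxes in these promoters, 13 began between 16 bases before and 36 bases after the start. PES1 has its E-box 14 bases after the start, and RRP9 has it 5 bases before. WDR3, UTP15, RRP15 and NIP7 fell with no match in the window.

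Among other gene lists, 27 of 101 promoters (26.7%) of the further processing and assembly genes held an E-box, and 3 of 63 (4.76%) of the ribosomal protein genes. Of all genes called lower 13.9% held it, of those called higher 8.88% and of those not called 8.85%. Other motifs were searched on both strands. ACGTG, the core of the hypoxia response element that every E-box contains, was present in 55.2% of the set and in 26.4% of tested genes. These are 16 of 29 promoters, 13 of them with an E-box, and 2696 of 10215, 1028 of them with an E-box. Outside promoters with an E-box, ACGTG was not more frequent in the set. CCGGAAGT, an ETS site, was present in 13.8% and 8.44%. The GC box GGGCGG was present in 69.0% and 69.3%, CCAAT in 41.4% and 36.9%, and TATAAA in 6.90% and 6.03%. These matches are letters in a window and were not measured as binding.

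**Figure D5:**
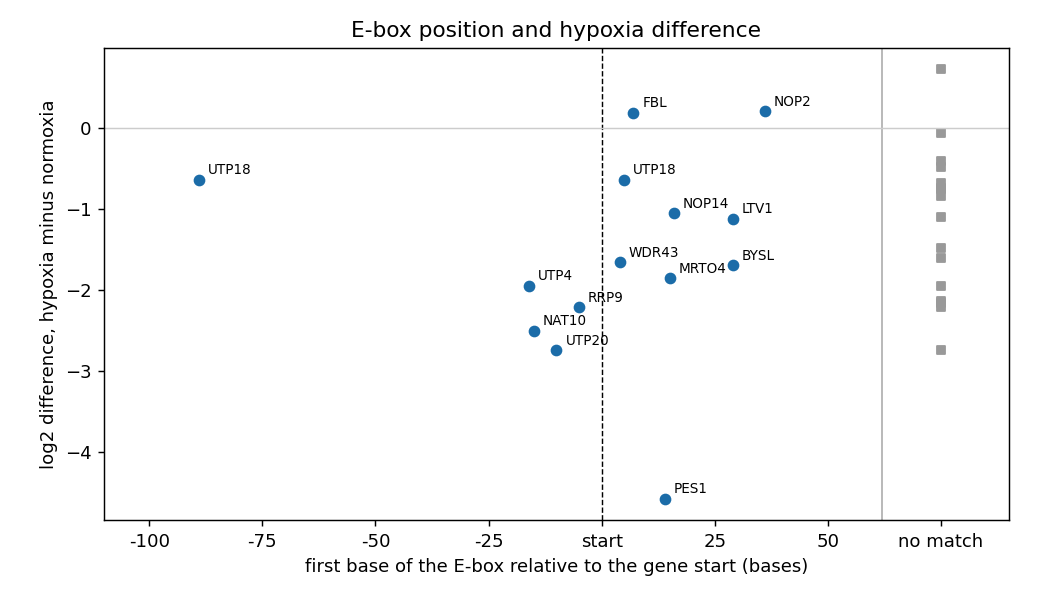
Log2 difference, hypoxia minus normoxia, against the position of the first base of each E-box from the start given with the promoter (bases). Shown are the 13 genes that hold one, with the 16 genes that hold none as grey squares at the right. The E-boxes lie within 16 bases before to 36 after the start, except 1 of the E-boxes of UTP18, at 89 bases before it.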

How the data were processed

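RNA of HCT116 cells was measured on 4 Affymetrix arrays, 2 per oxygen level, from 6 µg of total RNA each. The deposited values are linear intensities of probe sets, and the submitters' processing notes name MAS5 (version not given in the sources used here). Each array's trimmed mean was 499.9, which hides any shift that most genes share. Detection calls were not used here. Arrays shared at most 1 identical value per pair, so none was counted as a duplicate.

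Of 54675 probe sets, 41091 were listed for 1 gene in the platform annotation and were used, for 19775 genes. Each gene was represented by its brightest probe set on average over the 4 arrays. It was tested if that average reached 97.4, the median over probe sets, as 12636 genes did. The log2(signal + 23.7), 23.7 being the 25th percentile of all values, was compared in R 4.3.3 by limma 3.58.1 (eBayes with an intensity trend, two-sided, Benjamini-Hochberg over all genes), a fit tested on simulated data. A bound replaces a gene's hypoxia signals by the brightest Bacillus control of each array, on the same log2 scale; the labels do not say whether such RNA was added.

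The members and lists were chosen with earlier results of these data known. Every member is named. Array values are given for up to 4 members of a role with the largest difference, members called higher, members whose probe sets differ in sign, and the member with the largest p. Of each list, up to 3 called genes with the largest difference and up to 2 of the minority are named; MYC and genes named for a bound, a position or a second value were chosen after their values were seen. Alternatives covered the letter block, pseudocounts, scaling, filters, probe set choice, variance model, thresholds and each array left out. Figures were drawn with matplotlib 3.10.9 in Python 3.11.15.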

Additional observations from a re-analysis of the deposited data

How the results depend on the processing

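Of the 26 genes that fell, 14 kept their call under all 19 alternatives, 12 lost it under at least 1, and 0 reversed. Their number was 20 to 27 with 1 array left out. UTP18, UTP20, NOP14, LTV1, WDR12, BRIX1 and LYAR lost the call without a normoxia array, and UTP20 ranged from -3.86 to -1.62. The set's median moved from -1.30 to -1.16 when scaled to the 75th percentile (all tested genes moved by 0.15), to -2.72 when scaled to hybridization controls, to -1.11 with the mean of probe sets, to -1.11 with falls into the background at their bounds (chosen after seeing the data), and from -1.43 to -1.22 with 1 array left out. The count of 1 higher (NPM1) became 0 after quantile normalization, scaling to hybridization controls and the mean of probe sets (0 at an unadjusted limma p under 0.05), and 0 without the filter, without the intensity trend, at an adjusted p under 0.01 and with a 2-fold minimum (1 unadjusted). NPM1 reversed to -0.15 with quantile normalization and to -0.73 with hybridization controls.

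Of all tested genes, 2876 were lower and 1927 higher. Hybridization controls gave 5355 and 46, no intensity trend 1811 lower, an adjusted p under 0.01 gave 1797 and 1197, a 2-fold minimum 1221 higher, and 1 array left out 1371 to 3747 lower and 1204 to 2510 higher. The further processing lists, 87 lower, ranged from 50 to 94 with 1 array left out. RNA polymerase I genes, 9 lower, were 4 without the trend, 5 with a 2-fold minimum and 2 to 11 with 1 array left out. Ribosomal proteins, 50 higher, were 2 after quantile normalization, 0 with hybridization controls (0 unadjusted), 1 without the trend, 33 at an adjusted p under 0.01, 18 with a 2-fold minimum and 24 to 51 with 1 array left out. The cause was not tested.

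The labels do not say whether a letter pairs arrays across the groups, and the deviations of normoxia A and hypoxia A correlated at 0.09. With the replicate block 28 genes of the set fell, and of all tested genes 3265 were lower and 2222 higher. The limma adjusted p of RRS1 was 2.31e-42 in that fit, beside 8.26e-05 in the main fit. Such values rest on a spread pooled over genes, so calls gained with the block are weak. CACGTG is its own reverse complement, so the plus strand alone gives the same E-box counts by construction. ACGTG on that strand, E-boxes included, was in 48.3% of the set's promoters and 18.9% of those of tested genes. With 1 array left in a group, its spread is assumed to be that of the other. Without a hypoxia array this is the smaller normoxia spread, with a median SD of 0.15 against 0.27, so genes are called more easily. Few arrays and signals near the Bacillus controls limit the size of the largest falls.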

Other observations

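Probe sets for mature ribosomal RNA, present as array controls, are outside the comparison. Their signals did not separate the groups. The middle probe set of 18S RNA was at 108 and 308 in normoxia A and B and at 118 and 711 in hypoxia A and B. Its hypoxia A signal lay under the Bacillus control of 305 on that array. The middle probe set of 28S RNA was at 1276 and 2299 in normoxia and at 1121 and 3792 in hypoxia. In both, the B array was brighter than the A array of its group, and the groups overlapped. Whether these signals follow the amount of ribosomal RNA was not tested.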
